A study of Mus musculus with 21 samples.

Results

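Peritubular myoid (PTM) cells and vascular smooth muscle cells (VSMC) of the mouse were compared by small RNA sequencing, with 3 PTM libraries set against 3 VSMC libraries chosen by their sample labels, out of 21 libraries of 7 cell types in the series. PTM cells are the flat contractile cells that wrap the seminiferous tubules of the testis, and VSMC are the contractile cells of the vessel wall. All libraries came from untreated C57BL/6J primary cells grown in DMEM/F12 with 10% fetal bovine serum. The testicular cells were isolated by earlier described methods, and the smooth muscle cells were bought from a supplier, so that the source of the cells and their tissue cannot be told apart. The sources used here give neither the vessel, nor the passage number, nor the purity. Intestinal (ISMC) and tracheal (TSMC) smooth muscle cells from the same supplier, with 3 libraries each, served to show what was particular to the vascular type. No label tells if libraries of 1 type are separate animals or cultures, so that p-values measure only the spread between these libraries, which may be technical.

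A microRNA (miRNA) is a short RNA cut from a hairpin that guides Argonaute proteins to messenger RNAs, mainly through its seed, bases 2 to 8. Smooth muscle cells switch between a contractile state, in which miR-143 and miR-145 are known to be abundant, and a growing state that culture in serum favours and in which miR-21, miR-31, miR-221 and miR-222 have been studied. The miRNAs of the Hox clusters (miR-10, miR-196 and miR-615) are known to follow the position of a tissue along the body axis, and those of the imprinted Dlk1-Dio3 region are made from the maternal chromosome as one large group. The PTM cell is less studied, and its comparison with a vascular cell asks which miRNAs separate 2 contractile cells of different organs.

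The table held 1556 mature miRNA entries, of which 846 had at least 10 counts in at least 3 libraries and were tested. The mature counts came to 8104657, 8620516 and 6184062 in the PTM libraries, which was 29.9% to 45.4% of their tags, and to 14578557, 13854792 and 11384312 in the VSMC libraries, which was 53.2% to 62.4% of theirs. Levels are given as counts per 1000000 mature tags after TMM scaling (CPM). Between libraries of 1 type the median coefficient of variation was 30.7% in PTM cells over 236 miRNAs of at least 50 CPM, and 15.8% in VSMC over 221. The markers miR-143 and miR-145 were present in both types. A few entries were counted very unevenly within a type. Among the miRNAs with at least 50 CPM in a library, 8 of 270 in PTM cells and 6 of 228 in VSMC spanned more than 20-fold between libraries, and let-7e-5p, at 24891 CPM in the highest VSMC library, had 2 counts in VSMC replicate 2.

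The sequences below, from RefSeq (GRCm38.p6, the same assembly as mm10), are those on which the results turn. The first pair, of the Hox clusters, shares its seed and differs by a single base, shown in capitals, which is U12A when miR-10a-5p is compared with miR-10b-5p and positions are counted from 1 at the 5′ end. The gene of miR-10a-5p lies at chr11:96317186-96317208 (+ strand) in no annotated host gene, and that of miR-10b-5p at chr2:74726074-74726096 (+ strand) in an intron of Hoxd3 and Hoxd4.
miR-10a-5p: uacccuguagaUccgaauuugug
miR-10b-5p: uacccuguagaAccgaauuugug

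The next set represents the Dlk1-Dio3 region on chromosome 12, which carried 84 of the 152 miRNAs that were higher in VSMC (87 of 244 with the tags of all classes as library size), with the seeds in capitals. The gene of miR-127-3p lies at chr12:109592888-109592909 (+ strand), and miR-411-5p at chr12:109710190-109710210 (+ strand).
miR-127-3p: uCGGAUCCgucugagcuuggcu
miR-433-3p: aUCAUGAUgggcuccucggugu
miR-431-5p: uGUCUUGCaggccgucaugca
miR-411-5p: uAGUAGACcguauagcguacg

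The 12 largest differences in favour of PTM cells, among miRNAs of at least 50 CPM with no overlap, came from a cluster on the X chromosome, such as miR-470-5p at chrX:66813995-66814017 (- strand), and from the gonadal gene of miR-202, in an exon of the long RNA Gm2044 at chr7:139957695-139957716 (- strand). The seeds are again in capitals. The seeds of the 4 sequences differ from one another.
miR-470-5p: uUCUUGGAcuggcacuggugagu
miR-465a-3p/miR-465b-3p/miR-465c-3p: gAUCAGGGccuuucuaaguaga
miR-743a-3p: gAAAGACAccaagcugaguaga
miR-202-3p: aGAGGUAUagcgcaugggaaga

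The last set was lower in VSMC than in both other smooth muscle types. The gene of miR-149-5p lies at chr1:92850381-92850403 (+ strand) in an intron of Gpc1, which encodes a cell surface proteoglycan, and that of miR-455-3p at chr4:63256904-63256924 (+ strand) in an intron of the collagen gene Col27a1. The miR-9b-3p sequence of 21 bases is the exact reverse complement of bases 1 to 21 of miR-9-5p and is assigned to the opposite strand of the same 3 loci, for example chr3:88215613-88215633. The sources used here do not say if the counting used strand, so that reads of miR-9-5p and miR-9b-3p cannot be told apart.
miR-149-5p: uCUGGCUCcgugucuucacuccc
miR-455-3p: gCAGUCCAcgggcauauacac
miR-9-5p: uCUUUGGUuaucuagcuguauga
miR-9b-3p: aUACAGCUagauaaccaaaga

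PTM cells and VSMC differed in a large part of their miRNAs. Of 846 miRNAs tested with edgeR's quasi-likelihood test (Benjamini-Hochberg adjusted p under 0.05, all 21 libraries in one fit), 365 passed, which was 43.1%. Of these, 213 (25.2%) were higher and 152 (18%) were lower in PTM cells than in VSMC. By levels alone, the PTM libraries all lay above the VSMC libraries for 273 miRNAs (32.3%), and all lay below them for 207 (24.5%). The split of the calls depended on the scaling. It was 176 higher and 193 lower with library totals, and 114 higher and 244 lower when the tags of all RNA classes set the library size, a scaling under which the median log2 fold change of all miRNAs was -0.70, beside 0.29 under TMM. In these bulk cultures, fewer cells of a type and less RNA per cell cannot be told apart.

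**Figure D1:**
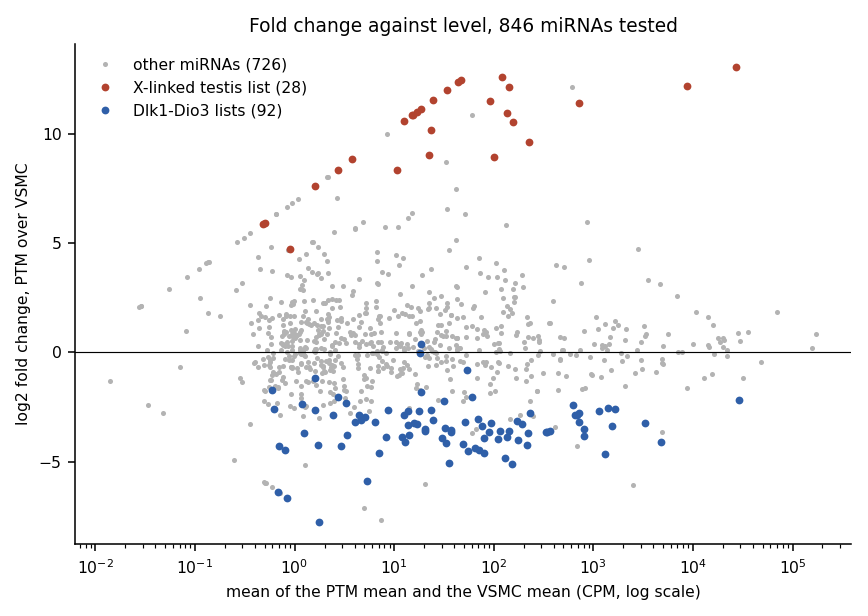
Log2 fold change of PTM over VSMC (vertical axis) against the mean level of the 2 types in CPM (horizontal log axis) for the 846 miRNAs tested, each point 1 miRNA. The 28 X-linked testis miRNAs lie between 4.71 and 13.06, and the 92 Dlk1-Dio3 miRNAs between -7.74 and 0.39. The fitted values of miRNAs with no count in 1 type depend on the prior count of the fit.

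The let-7 seed family, known for its rise in differentiated cells, made up 41.5 ± 7.37% of the mature tags of PTM cells and 36.2 ± 3.43% of those of VSMC (SD, n = 3 each). Of its 10 tested members, 2 passed the test, both higher in PTM cells. All 20 tested let-7 and miR-98 arms together had 4 higher and 1 lower, which turned to 0 higher and 4 lower with the tags of all classes as library size. The leading member let-7c-5p had 242825, 290229 and 131161 CPM in the PTM libraries, against 140106, 101471 and 125028 CPM in the VSMC libraries, a log2 fold change of 0.86 ± 0.48 (SE) that did not pass (adjusted p = 0.16). PTM replicate 3 lay below the highest VSMC library, so that the groups overlapped. The most abundant miRNA that passed in PTM cells was miR-652-3p, from an intron of Tmem164 on the X chromosome. It had 112339, 98284 and 117694 CPM in PTM cells, against 27171, 27694 and 35934 CPM in VSMC, and passed at a log2 fold change of 1.85 ± 0.44 (adjusted p = 0.0016). Its PTM libraries were all above its VSMC libraries, but the call was lost when the tags of all classes set the library size. Among the 40 most abundant miRNAs, the smallest differences were those of miR-23a-3p (0.01 ± 0.46), miR-23b-3p (0.04 ± 0.43), miR-21a-5p (-0.06 ± 0.48), miR-125a-5p (0.09 ± 0.44) and miR-125b-5p (-0.16 ± 0.59) on the log2 scale with SE. Their 95% intervals all lay between -1.38 and 1.05, and for each of these miRNAs a difference inside its own interval was not excluded.

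The Dlk1-Dio3 region held the largest block of miRNAs that were higher in VSMC than in PTM cells. It spans chr12:109563710-109747949 on mm10, and its miRNAs are made from long maternal transcripts that include Meg3, the transcript opposite Rtl1, and Mirg. Of 92 members tested, 84 were lower and 0 were higher in PTM cells than in VSMC, with a median log2 fold change of -3.41, against 18% lower and a median of 0.29 among all miRNAs tested. The proximal group had 22 of 27 lower and the distal group 62 of 65. Of these, 1 proximal and 2 distal members had no count in PTM cells, which fixed their direction. With them set at a bound of 3 counts over the group, the median was -3.18 in the proximal group and -3.48 in the distal group. The members together took 1.33%, 1.05% and 1.33% of mature tags in the PTM libraries, against 8.6%, 10.5% and 10% in the VSMC libraries. The mean was 1.24 ± 0.165% in PTM cells and 9.69 ± 0.969% in VSMC (SD, n = 3 each), and the libraries did not overlap. An exact 2-sided permutation test over the 20 splits of 3 against 3 libraries gave p = 0.10 for each of the 2 groups of members, the smallest value that this design allows. Under all 18 alternative settings no member was called higher in PTM cells, and 73 to 87 were called lower.

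Within the region miR-127-3p, encoded opposite the imprinted gene Rtl1, was by far the most abundant. It had 11166, 11250 and 9402 CPM in PTM cells, against 44053, 49503 and 48503 CPM in VSMC, and a log2 fold change of -2.16 ± 0.45 (adjusted p = 0.00049). All PTM libraries lay below all VSMC libraries. Its neighbour miR-433-3p had 631, 418 and 548 CPM in PTM cells, against 7977, 8688 and 10265 CPM in VSMC (-4.08 ± 0.53, adjusted p = 2.4e-06). Its libraries did not overlap between the types either, and it was the next most abundant member in VSMC. The difference of miR-431-5p was larger still, with 125, 109 and 68.1 CPM in PTM cells against 2211, 2207 and 3125 CPM in VSMC (-4.64 ± 0.53, adjusted p = 7e-07). In the distal group miR-411-5p had 789, 658 and 492 CPM in PTM cells against 6214, 5345 and 6419 CPM in VSMC (-3.21 ± 0.51, adjusted p = 2.5e-05). The 3p arm of the same hairpin, miR-411-3p, differed more, at -4.82 ± 0.64, as did miR-668-3p at -5.09 ± 0.76 and miR-431-3p at -5.07 ± 0.66 on the log2 scale with SE. The 8 members that did not pass were miR-136-5p, miR-299b-3p, miR-3070-2-3p, miR-341-5p, miR-376b-5p, miR-541-3p, miR-665-3p and miR-673-5p, listed after their values were seen. All but miR-376b-5p, miR-673-5p and miR-3070-2-3p averaged under 5 CPM in both types.

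**Figure D2:**
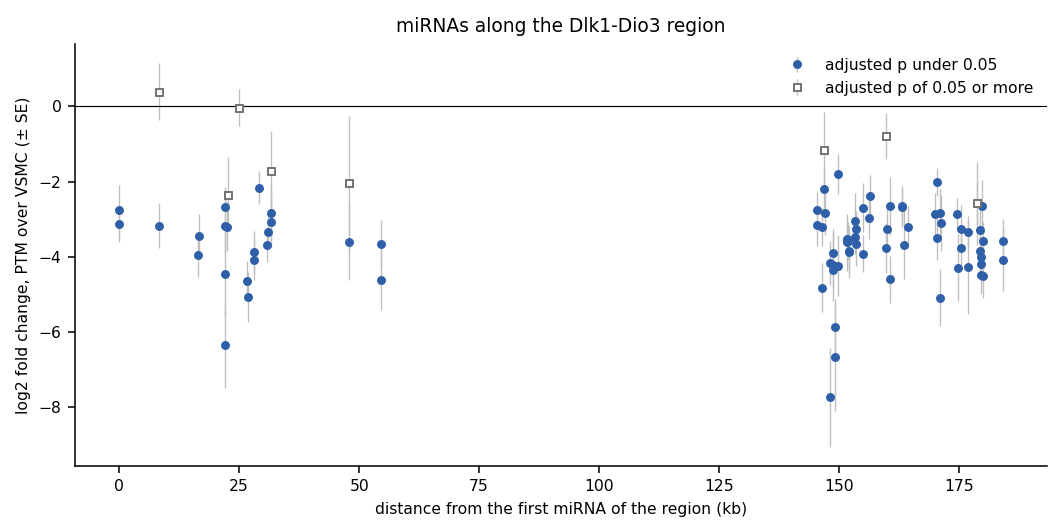
Log2 fold change of PTM over VSMC with its SE (vertical axis) for the Dlk1-Dio3 miRNAs, by distance in kb from the first miRNA of the region (horizontal axis). Filled points passed the adjusted p of 0.05 and open squares did not. The proximal and the distal groups both lie almost entirely below 0, with only miR-673-5p, at 0.39, above it.

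The block was abundant in all 3 smooth muscle types. The members took 9.3 ± 0.583% of mature tags in ISMC and 7.71 ± 0.706% in TSMC (SD, n = 3 each), beside the 9.69% of VSMC, and 2.99 ± 0.207% in Leydig cells, the other testicular type in which they were abundant. The mean was highest in VSMC for 73 of the 92 members. Against ISMC 0 members passed in either direction, with a median log2 fold change of 0.37 in the proximal group and 0.74 in the distal group. Against TSMC only miR-369-5p passed, at 330 CPM in VSMC and 95.1 CPM in TSMC (1.80 ± 0.41, adjusted p = 0.011). Other fits called more of the block. Of the 13 miRNAs that DESeq2 called higher in VSMC than in both other types, 8 were members, and of the 11 called so by edgeR in the fit of the 4 contractile types, 4 were. Elsewhere on chromosome 12, 17 other miRNAs were tested, of which 7 were higher and 3 lower in PTM cells.

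The Hox-linked miRNAs divided between the types. Both miR-10a and miR-10b are known to lie beside group 4 Hox genes, in the HoxB and HoxD clusters. In PTM cells miR-10a-5p had 85.9, 87.4 and 48.0 CPM, against 5501, 4154 and 4993 CPM in VSMC, and its log2 fold change was -6.05 ± 0.57 (adjusted p = 8.9e-08). It was the largest difference in favour of VSMC among miRNAs of at least 50 CPM whose libraries did not overlap. The near-identical miR-10b-5p ran the other way, with 1394, 1821 and 822 CPM in PTM cells against 172, 127 and 153 CPM in VSMC (3.16 ± 0.54, adjusted p = 5.9e-05). With 1 base between them, reads of the 2 miRNAs depend on how mismatches were counted, on which the sources used here are silent, and both levels are uncertain to that extent. Each type thus had 1 abundant form, and their common seed held 0.111 ± 0.0219% of the mature tags of PTM cells and 0.526 ± 0.0336% of those of VSMC. Of the 8 Hox-linked miRNAs tested, 2 were higher and 3 were lower in PTM cells, beside 25.2% and 18% of all miRNAs. The third was miR-196b-5p, from the HoxA cluster, with 30.5, 24.9 and 12.1 CPM in PTM cells and 74.8, 60.6 and 98.0 CPM in VSMC (-1.79 ± 0.59, adjusted p = 0.018). That call was lost without PTM replicate 3 (adjusted p = 0.083) and without VSMC replicate 3 (adjusted p = 0.09). The sister form miR-196a-5p, which differs from it at A12C, did not pass (0.57 ± 0.60, adjusted p = 0.48).

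Of the 4 tested arms of miR-143 and miR-145, which promote smooth muscle differentiation, 0 passed by edgeR, by DESeq2 or by limma-voom in the fit of all types. With the 4 contractile types or the 2 types alone in the edgeR fit, 1 of 3 tested arms was higher in PTM cells, miR-145a-3p in the first and miR-145a-5p in the second. In PTM cells miR-143-3p had 27236, 30187 and 17269 CPM, against 17708, 12940 and 16318 CPM in VSMC (0.67 ± 0.59, adjusted p = 0.39). The lowest PTM library and the highest VSMC library overlapped. For miR-145a-5p the levels were 2290, 3839 and 2542 CPM in PTM cells and 1735, 1637 and 775 CPM in VSMC (1.06 ± 0.70, adjusted p = 0.24), and all PTM libraries lay above all VSMC libraries. As a share of mature tags the list came to 2.21 ± 0.22% in PTM cells and 1.78 ± 0.119% in VSMC (SD, n = 3 each, exact permutation p = 0.10, the smallest possible), but the order turned round as a share of the tags of all classes, with PTM minus VSMC at -0.192 percentage points.

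Of the miRNAs linked to the growing state, miR-31-5p was higher in VSMC than in PTM cells. By edgeR it did not pass as higher in VSMC than in ISMC or in TSMC. It had 1024, 590 and 526 CPM in PTM cells, against 9174, 9599 and 8234 CPM in VSMC (-3.66 ± 0.61, adjusted p = 4.7e-05), with no overlap of the libraries. The most abundant of the group, miR-21a-5p, had 19500, 17555 and 10774 CPM in PTM cells and 18390, 17378 and 14062 CPM in VSMC. Neither miR-221-3p (-0.80 ± 0.63) nor miR-222-3p (-0.47 ± 0.59) passed. In all, 2 of the 10 tested arms of this group were higher in PTM cells and 2 were lower, beside 25.2% and 18% of all miRNAs. The wider list of miRNAs studied in vascular smooth muscle had 5 of 34 higher and 5 lower, with a median log2 fold change of -0.27, so that the share that passed was below that of all miRNAs. With library totals it was 4 higher and 10 lower. Within it miR-92a-3p, of the miR-17 clusters that promote cell division, was higher in PTM cells (20197, 20511 and 27353 CPM, against 8575, 9813 and 9827 CPM in VSMC, 1.27 ± 0.34, adjusted p = 0.0041). That call was lost with the tags of all classes as the library size and without the filter on low counts (adjusted p = 0.65 and 0.056).

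Of the connective tissue lists, that of miR-140 and miR-455 had 2 of 4 lower in PTM cells, that of miR-199 and miR-214 1 of 5 and that of miR-29 1 of 7, beside 18% of all miRNAs. Both arms of miR-140, a cartilage miRNA inside Wwp2, passed, and the 2 arms of miR-455 did not. The list of miR-140 and miR-455 took 0.095 ± 0.024% of mature tags in VSMC, 0.0594 ± 0.0143% in ISMC and 0.106 ± 0.0478% in TSMC (SD, n = 3 each). Against TSMC 2 of its members were called lower in VSMC and 0 higher. In PTM cells miR-140-5p had 56.5, 75.8 and 43.6 CPM, against 617, 388 and 305 CPM in VSMC (-2.90 ± 0.50, adjusted p = 6.6e-05), and miR-140-3p also passed at -1.76 ± 0.46 (adjusted p = 0.0037). Among the 5 miR-199 and miR-214 arms, most of which come from the Dnm3os transcript of mesenchyme, only miR-199a-5p passed (-1.62 ± 0.61, adjusted p = 0.035). With library totals 4 of the 5 passed, all lower. The call of miR-199a-5p was lost without any 1 of 5 libraries, at adjusted p of 0.064 to 0.11, namely PTM replicates 2 and 3 and each VSMC replicate. The list as a whole came to 0.586 ± 0.122% of the mature tags of PTM cells and 1.98 ± 0.481% in VSMC (exact permutation p = 0.10, the smallest possible). For miR-29a-3p, a repressor of collagen genes, the levels were 6715, 7720 and 9440 CPM in PTM cells and 22579, 16914 and 13826 CPM in VSMC. It passed at -1.16 ± 0.44 (adjusted p = 0.036), and the call was lost without PTM replicate 1 or 2 (adjusted p = 0.10 each) and without VSMC replicate 1, 2 or 3 (adjusted p = 0.16, 0.066 and 0.062).

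The striated muscle miRNAs held under 0.1% of the mature tags in every library of either type. Their mean share was 0.0794 ± 0.0105% in VSMC, 0.0636 ± 0.00903% in ISMC and 0.0872 ± 0.0124% in TSMC (SD, n = 3 each). Of 6 tested arms, 4 were higher and 1 was lower in PTM cells, beside 25.2% and 18% of all miRNAs. The lower one was miR-206-3p, known from skeletal muscle, with 109, 88.5 and 14 CPM in PTM cells against 837, 759 and 646 CPM in VSMC (-3.41 ± 0.76, adjusted p = 0.00097). The most abundant of the higher ones was miR-133a-3p, of skeletal and heart muscle, with 273, 261 and 250 CPM in PTM cells against 5.33, 5.87 and 2.46 CPM in VSMC (5.84 ± 0.79, adjusted p = 3.9e-06). Its usual partner miR-1a-3p was at 6.87, 8.86 and 4.57 CPM in PTM cells and 0.0701, 1.83 and 0.933 CPM in VSMC. That difference passed (2.81 ± 0.99, adjusted p = 0.028), and was lost under all 4 other scalings (adjusted p of 0.056 to 0.13), without PTM replicate 1 or 2 (adjusted p = 0.058 and 0.069) and without VSMC replicate 1 or 3 (adjusted p = 0.084 and 0.073).

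Outside these groups, miR-1983 of chromosome 13 and the Gnas-region miRNA miR-298-5p were higher in VSMC than in PTM cells. By edgeR neither passed as higher in VSMC than in ISMC or in TSMC. The levels of miR-1983 were 78.3, 60.3 and 60.3 CPM in PTM cells and 1406, 852 and 1673 CPM in VSMC (-4.30 ± 0.47, adjusted p = 5.3e-07). Those of miR-298-5p were 27.5, 32.7 and 35.1 CPM in PTM cells and 260, 297 and 230 CPM in VSMC (-3.05 ± 0.39, adjusted p = 2.2e-06). Neither set of libraries overlapped. Of the 12 largest differences in favour of VSMC over PTM cells, among miRNAs of at least 50 CPM with no overlap, 10 were of the Dlk1-Dio3 region. The others were miR-10a-5p and miR-1983.

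**Figure D3:**
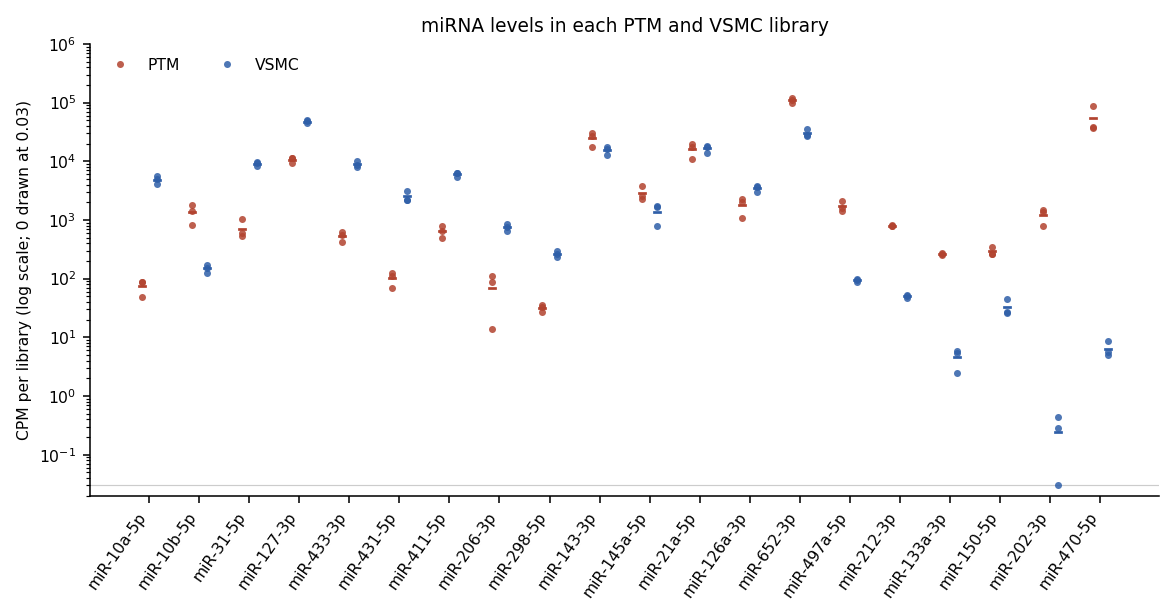
Level of 20 miRNAs in each PTM library (left of each pair) and each VSMC library (right), in CPM on a log axis, with points for libraries and bars for means of 3. The libraries of the contractile miR-143-3p and the abundant miR-21a-5p overlap, while miR-10a-5p, miR-31-5p and the Dlk1-Dio3 miRNAs are higher in VSMC and miR-470-5p and miR-202-3p in PTM cells. A count of 0 is drawn at 0.03 CPM.

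Few miRNAs set the vascular type apart from the other smooth muscle cells by this test, and those that did so against both were lower in VSMC. Against ISMC 11 of 846 miRNAs passed (1.3%), 0 of them higher and 11 lower in VSMC. Against TSMC 28 passed (3.31%), with 10 higher (1.18%) and 18 lower (2.13%). Lower than in both were 7 miRNAs (0.827%) and higher than in both 0. At an unadjusted p under 0.05 there were 42 higher and 71 lower against ISMC, and 90 higher and 96 lower against TSMC. Against ISMC, DESeq2 called 18 higher and 23 lower, and limma-voom 0 higher and 10 lower. The split against TSMC was 15 higher and 15 lower with library totals, and 38 higher and 8 lower with the tags of all classes as library size, and that against ISMC was 1 higher and 8 lower with library totals. The counts moved with the samples in the fit and with single libraries. In the fit of the 4 contractile types alone, 11 miRNAs were higher and 17 lower in VSMC than in both, and DESeq2 made these counts 13 and 14. Without VSMC replicate 1, 2 or 3 the count of miRNAs lower than in both was 2, 0 and 4, and without ISMC replicate 1 it was 4. Against ISMC, the call count was 2, 0 and 4 without VSMC replicate 1, 2 or 3, and 5 and 6 without ISMC replicate 1 or 2. Against TSMC it was 15 and 14 without VSMC replicate 1 or 2, and 18 and 16 without TSMC replicate 1 or 3.

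The most abundant of the 7 lower miRNAs was miR-149-5p. It had 1116, 1241 and 1452 CPM in VSMC, against 7546, 4803 and 3979 CPM in ISMC and 8090, 6456 and 5775 CPM in TSMC. The log2 fold change was -2.10 ± 0.41 against ISMC (adjusted p = 0.0092) and -2.42 ± 0.41 against TSMC (adjusted p = 0.00071). Its other arm, miR-149-3p, shared the pattern at 5.52 CPM in VSMC, 28.3 CPM in ISMC and 25.3 CPM in TSMC. The call of miR-149-5p against ISMC was lost without VSMC replicate 1 or 2 (adjusted p = 0.094 and 0.085) and without ISMC replicate 1 (adjusted p = 0.059). PTM cells had 792, 385 and 747 CPM of it, lower again than VSMC (-0.99 ± 0.40, adjusted p = 0.049), in a call that was lost when any library but PTM replicate 1 was left out, at adjusted p of 0.061 to 0.24.

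The arm miR-455-3p, of a miRNA known from cartilage, had 63.8, 54.6 and 40.8 CPM in VSMC, against 133, 184 and 239 CPM in ISMC and 321, 727 and 489 CPM in TSMC. The difference was -1.80 ± 0.43 against ISMC (adjusted p = 0.042) and -3.27 ± 0.45 against TSMC (adjusted p = 5.3e-05). Against ISMC the call was lost without any 1 of 5 libraries, namely each VSMC replicate and ISMC replicates 2 and 3, at adjusted p of 0.075 to 0.16. For miR-9b-3p the levels were 24.7, 20.9 and 29.8 CPM in VSMC, 183, 115 and 110 CPM in ISMC and 98.7, 86.8 and 87.7 CPM in TSMC (-2.44 ± 0.41 against ISMC, adjusted p = 0.0031, and -1.86 ± 0.40 against TSMC, adjusted p = 0.0079). Its reverse-complement partner miR-9-5p, a miRNA of the nervous system, followed it at 7.19 CPM in VSMC, 33.9 CPM in ISMC and 27.2 CPM in TSMC. Both calls of miR-9b-3p were lost without VSMC replicate 2 (adjusted p = 0.063 against ISMC and 0.059 against TSMC). With the tags of all classes as library size, the ISMC calls of miR-149-5p and miR-455-3p (adjusted p = 0.12 and 0.18) and the TSMC call of miR-9b-3p (adjusted p = 0.057) were lost. The other members of the set, named after their values were seen, were miR-338-5p, at 3.24 CPM in VSMC, 27.0 CPM in ISMC and 69.9 CPM in TSMC, and miR-6392-5p, at 0.0283 CPM in VSMC, 2.83 CPM in ISMC and 1.96 CPM in TSMC.

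The largest vascular-high differences from another smooth muscle type were Hox-linked and concerned the trachea. In VSMC miR-10b-5p averaged 151 CPM, against 62.3 CPM in ISMC and 3.55 CPM in TSMC, and the difference from TSMC was 5.40 ± 0.61 (adjusted p = 7.1e-06). The same held against TSMC for miR-196b-5p, at 77.8 CPM in VSMC, 52.3 CPM in ISMC and 1.98 CPM in TSMC (5.31 ± 0.70, adjusted p = 3.5e-05), and for miR-615-5p, at 11.8 CPM in VSMC, 16.9 CPM in ISMC and 0.176 CPM in TSMC (5.91 ± 0.68, adjusted p = 7.1e-06). Against ISMC none of these 3 passed, at log2 fold changes of 1.28, 0.57 and -0.52 in the same order, although DESeq2 and the fit of the 4 contractile types called miR-10b-5p higher in VSMC than in both. The mean level of miR-10a-5p was 4883 CPM in VSMC, 1992 CPM in ISMC and 1240 CPM in TSMC. Its difference from TSMC passed (1.98 ± 0.47, adjusted p = 0.017) and that from ISMC did not (1.29, adjusted p = 0.24), although the libraries of VSMC lay above those of both. The fit of the 4 contractile types and DESeq2 called miR-10a-5p, too, higher than in both.

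The endothelial miRNA miR-126 lies in Egfl7, a gene of the vessel lining, and serves as a marker of endothelial cells. In VSMC miR-126a-3p had 3646, 2964 and 3738 CPM, against 1297, 1057 and 1369 CPM in ISMC and 251, 217 and 145 CPM in TSMC. It was higher than in TSMC (4.08 ± 0.61, adjusted p = 0.00013), and its difference from ISMC did not pass (1.47, adjusted p = 0.25), while the fit of the 4 contractile types called it higher in VSMC than in both. PTM cells had 2030, 2243 and 1073 CPM, all below VSMC, in a difference that did not pass (-0.95 ± 0.54, adjusted p = 0.17) but did for miR-126a-3p with the 4 other scalings (adjusted p of 0.0054 to 0.033) and with DESeq2 (adjusted p = 0.023). The 4 arms of the endothelial list together came to 0.107% to 0.165% of the mature tags of PTM cells and 0.340% to 0.388% of those of VSMC, with means of 0.133% in ISMC and 0.0213% in TSMC. Of 2 arms tested, 0 passed between PTM cells and VSMC in the main fit. By DESeq2, and in the edgeR fits of the 4 contractile types and of the 2 types alone, 1 was lower in PTM cells. With the tags of all classes as library size 2 were. In all, miR-126a-3p passed under 8 of 18 alternatives. The part of endothelial RNA in the vascular results was not tested. The other miRNAs higher than in TSMC were miR-204-5p (3.95 ± 0.59), which has been studied in calcified vessels, miR-146a-5p (2.24 ± 0.57), a brake on inflammatory signalling, miR-126a-5p, miR-148a-5p and miR-369-5p, named after their values were seen. Among the most abundant miRNAs miR-22-3p was the one that stood out in VSMC, with 68978, 53628 and 44884 CPM, against 22923, 25859 and 21936 CPM in ISMC and 22769, 30769 and 29598 CPM in TSMC. The VSMC libraries lay above all 6 others, but neither difference passed (1.24, adjusted p = 0.20, and 1.01, adjusted p = 0.15). Both passed with library totals, with DESeq2, in the fit of the 4 contractile types and without the germ cell libraries. PTM cells had 44165, 54264 and 26840 CPM, which overlapped VSMC.

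**Figure D4:**
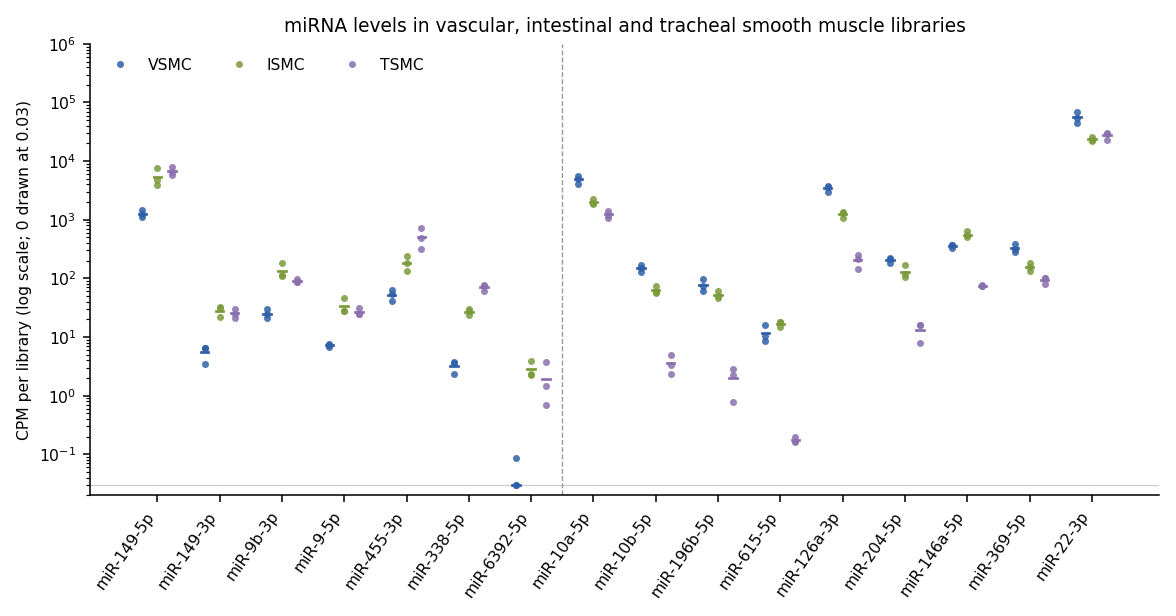
Level of 16 miRNAs in each library of VSMC, ISMC and TSMC (left to right within each group of points), in CPM on a log axis, with bars for means of 3. Left of the dashed line are the 7 miRNAs lower in VSMC than in both other types, and right of it are Hox-linked and other miRNAs that were higher in VSMC than in TSMC, with miR-22-3p, which did not pass, at the end. A count of 0 is drawn at 0.03 CPM.

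PTM cells were set apart from VSMC above all by an X-linked testis cluster. These miRNAs, of the miR-506 family, lie in a fast-evolving cluster near Fmr1 and are known for their expression in the testis. Of 34 entries, 28 passed the filter on low counts, and 19 of the 34 had no count in any VSMC library. All 28 were called higher in PTM cells, but 14 of them had no VSMC count and so passed the filter only through other types, which fixed their direction. Without the filter 30 of the 34 were higher and 0 lower. The median log2 fold change of the 28 was 10.84, and 9.18 with the 14 members that had no VSMC count set at a bound of 3 counts over the group. Together they took 4.38%, 7.96% and 5.47% of mature tags in PTM cells, against 0.00104%, 0.00121% and 0.00162% in VSMC. For miR-470-5p the levels were 37336, 88618 and 38317 CPM in PTM cells and 5.05, 5.56 and 8.57 CPM in VSMC (13.06 ± 0.81, adjusted p = 1.3e-10). Next came the joint entry of miR-465a-3p, miR-465b-3p and miR-465c-3p, whose sequences are identical, with 13612, 26483 and 12383 CPM in PTM cells and 2.94, 3.28 and 5.01 CPM in VSMC (12.19 ± 0.79, adjusted p = 1.4e-10). The related miR-465d-3p and miR-742-3p had no count in VSMC and were at least 1310-fold and 1187-fold higher in PTM cells, taking 3 counts over the VSMC group as the floor. For miR-743a-3p, with 1 count in VSMC, the ratio was 9942 (95% counting interval 1784 to 392794).

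The same cluster was abundant in other testicular cells, at 6.37 ± 0.793% of the mature tags of Sertoli cells and 8.27 ± 0.977% in germ cells, and only 0.0614 ± 0.0265% in Leydig cells (SD, n = 3 each). The germ cell markers, 9 entries of the miR-34b/c and miR-449 families, summed to 0.0382% to 0.0635% in the PTM libraries and 0.0747% to 0.0899% in the VSMC libraries, beside 28.6 ± 3.85% in germ cells. Of their 5 tested arms only miR-449a-5p passed, higher in PTM cells, and not by DESeq2 or limma-voom (adjusted p = 0.097 and 0.051). Of 11 tested arms of the epithelial markers (the miR-200 family, miR-141, miR-203, miR-205 and miR-429), 10 were higher in PTM cells. Among all miRNAs 25.2% were higher and 18% lower. Of the 11 arms, 2 had no count in 1 of the 2 types, which fixed their direction. In the edgeR fit of the 4 contractile types, and in that of the 2 types, 9 passed the filter on low counts and 9 were higher. The 14 entries of the list summed to 0.0154% to 0.0405% in the PTM libraries and 0.00123% to 0.00137% in the VSMC libraries, beside 0.0227 ± 0.0126% in Sertoli cells and 0.0976 ± 0.00788% in germ cells (SD, n = 3 each). Of these epithelial miRNAs, miR-200b-3p had 48.5, 160 and 40 CPM in PTM cells and 0.491, 0.442 and 0.424 CPM in VSMC (7.47 ± 0.97, adjusted p = 2.4e-06). The list of Leydig and Sertoli markers had 3 of 6 higher and 1 lower, and summed to 0.00609 ± 0.0016% in PTM cells and 0.0057 ± 0.000682% in VSMC. PTM replicate 2 was highest for miR-200b-3p, for the whole epithelial list and for the X-linked cluster. The part of other testicular cells in these results was not tested.

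The gonadal miRNA miR-202 was the other strong testicular mark. In PTM cells miR-202-3p had 1386, 1479 and 801 CPM, against 0.28, 0.442 and 0 CPM in VSMC (12.15 ± 1.22, adjusted p = 2.7e-07), and miR-202-5p had 2215 counts in PTM cells against 2 in VSMC, a ratio of 2517 (95% counting interval 696 to 20800). The 2 arms summed to 0.106 ± 0.0167% of the mature tags of PTM cells, 0.0653 ± 0.0328% in Sertoli cells and 0.0449 ± 0.0229% in Leydig cells. Of the 74 tested miRNAs with genes on the X chromosome alone, 48 were higher and 1 was lower in PTM cells. Among all miRNAs tested 25.2% were higher and 18% lower. The count for the X chromosome takes in members of the X-linked testis cluster already described, so that it is not a separate result.

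**Figure D5:**
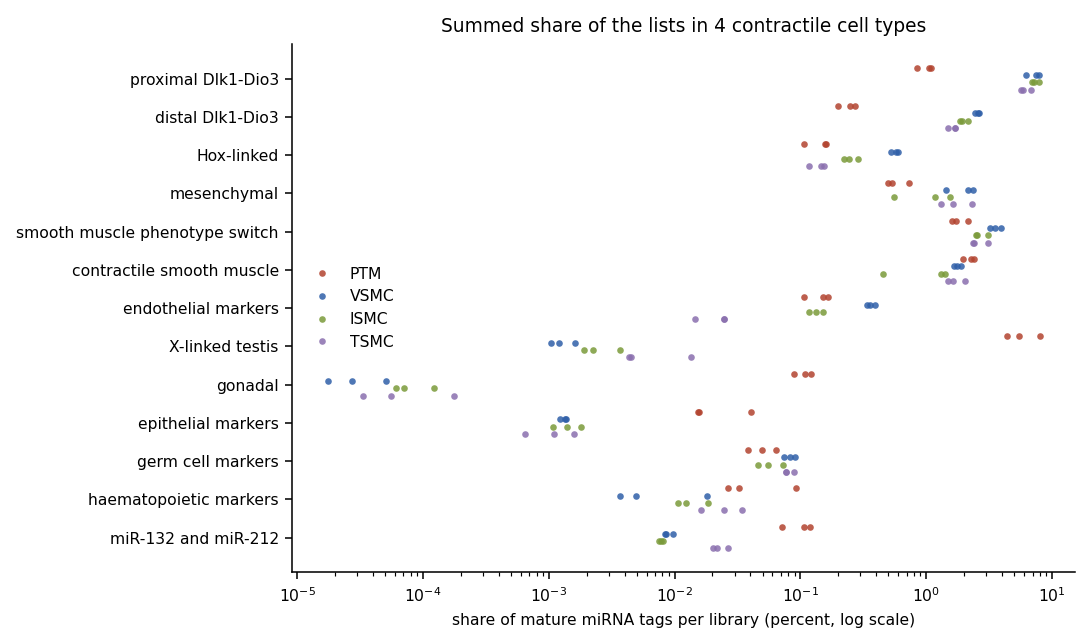
Share of mature miRNA tags taken by 13 lists of miRNAs in each library (horizontal log axis, percent), with 1 point per library and the types in rows from PTM at the top through VSMC, ISMC and TSMC within each list. The Dlk1-Dio3 lists separate PTM cells from all 3 smooth muscle types, the X-linked and gonadal lists do so in the other direction, and the contractile list is at 1.96% to 2.39% in PTM cells and 1.67% to 1.9% in VSMC.

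Of all miRNAs 25.2% were higher in PTM cells, and beside them all 4 arms of miR-132 and miR-212, whose joint transcript is induced by cAMP signalling, were higher, at log2 fold changes of 3.31 to 4.30. In PTM cells miR-212-3p had 798, 806 and 793 CPM, against 50.4, 53.5 and 47.4 CPM in VSMC (3.99 ± 0.58, adjusted p = 8.9e-06). Of 12 tested arms of the miR-15 and miR-16 family, which restrains the cell cycle, 8 were higher in PTM cells and 0 lower, and 6 were higher with the tags of all classes as library size. The 2 most abundant, miR-15b-5p (0.13 ± 0.41) and miR-16-5p (0.72 ± 0.40), were not among them. The difference lay in the less abundant forms. For miR-497a-5p the levels were 2141, 1605 and 1418 CPM in PTM cells and 97.5, 87.8 and 96.0 CPM in VSMC (4.2 ± 0.42, adjusted p = 2e-07), and for miR-322-5p, of an X-linked cluster, 999, 1250 and 630 CPM in PTM cells and 68.8, 61.8 and 65.1 CPM in VSMC (3.88 ± 0.57, adjusted p = 9.7e-06). Their common seed held 0.603 ± 0.0618% of the mature tags of PTM cells and 0.412 ± 0.0198% of those of VSMC, and of the tags of all classes the family's share was close, with PTM minus VSMC at -0.00162 percentage points.

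Of 3 tested blood cell markers 2 were higher in PTM cells, beside 25.2% of all miRNAs. In PTM cells miR-150-5p, of lymphocytes, had 346, 267 and 267 CPM, against 27.5, 26.1 and 45.7 CPM in VSMC (3.15 ± 0.45, adjusted p = 7.1e-06). The red cell miRNA miR-451a was uneven, with 53.0, 108 and 655 CPM in PTM cells and 6.38, 12.9 and 125 CPM in VSMC, and its call (2.51 ± 0.95, adjusted p = 0.04) was lost under the 4 other scalings (adjusted p of 0.061 to 0.18), without PTM replicate 3 (0.75, adjusted p = 0.52), without VSMC replicate 1 (adjusted p = 0.11) and without VSMC replicate 2 (adjusted p = 0.12). The 8 entries of the blood list summed to 0.0267% to 0.0920% in the PTM libraries and 0.0037% to 0.0181% in the VSMC libraries, and the part of blood cells was not tested. For miR-210-3p, which low oxygen induces, the levels were 112, 79.3 and 114 CPM in PTM cells and 27.5, 25.3 and 17.0 CPM in VSMC (2.13 ± 0.45, adjusted p = 0.00064), a call lost with the tags of all classes as library size (adjusted p = 0.079). The Igf2 intron miRNA miR-483-5p, at 19.1, 15.5 and 29.7 CPM in PTM cells and 0.21, 0.379 and 0.594 CPM in VSMC, was higher too (5.72 ± 0.83, adjusted p = 8.9e-06).

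In the remaining lists the calls were few or depended on the scaling. Among all miRNAs, 25.2% were higher and 18% lower in PTM cells. By edgeR 0 of the 11 arms of miR-23, miR-27 and miR-24 passed, where DESeq2 called 1 higher and 3 lower. None of the 3 miR-218 arms passed by edgeR, DESeq2 or limma-voom, nor any of the 5 tested arms of the miR-183 cluster by edgeR, of which DESeq2 called 1 lower. Of 42 repeat-type miRNAs of the Sfmbt2 cluster, 2 were higher and 2 lower, with a median log2 fold change of -0.15, and 2 higher and 9 lower with library totals. The miR-17 clusters had 8 of 18 higher and 0 lower, which became 1 and 1 with the tags of all classes as library size. The miR-30 family had 3 of 11 higher and 0 lower, against 2 and 2 with library totals, and the miR-181 family 2 of 8 higher and 1 lower, against 1 and 2.

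Of the 7 tested miRNAs of the miR-290 cluster, known from pluripotent cells, 6 were higher and 0 lower in PTM cells. The shares of all miRNAs were 25.2% and 18%. With the 2 types alone in the edgeR fit only 3 passed the filter on low counts, with 3 higher and 0 lower. The rest of the 7 thus passed the filter only through other types. Of the 17 entries, 9 had no count in any VSMC library and 7 had none in any PTM library. The entries summed to 0.00341 ± 0.00155% in PTM libraries and 0.000292 ± 9.1e-05% in VSMC libraries, beside 0.0493 ± 0.00846% in germ cells (SD, n = 3 each). The miR-125, miR-99 and miR-100 arms had 3 of 11 higher and 1 lower, the miR-148 and miR-152 arms 1 of 5 in each direction, and the imprinted miRNAs of H19, Igf2, Mest and Gnas 2 of 7 in each direction. Of the 7 miR-29 arms, miR-29a-3p alone passed, and of the 2 miR-210 arms, miR-210-3p. All 3 tested arms of miR-192 and miR-194, markers of gut epithelium, were higher, with 26.3 to 45.2 CPM of miR-192-5p in the PTM libraries and 8.27 to 10.0 CPM in the VSMC libraries, and 1 of the 3 remained so with the tags of all classes as library size.

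Among 609 seeds of tested miRNAs with a known sequence, 72 were shared by at least 2 tested miRNAs, and 4 had members that passed in opposite directions. One was the pair of miR-10a-5p and miR-10b-5p. Another was the seed of miR-99a-5p and miR-99b-5p, which come from different let-7 clusters and differ at 4 positions outside the seed. In PTM cells miR-99a-5p had 23418, 27510 and 12459 CPM, against 6829, 6336 and 7738 CPM in VSMC (1.60 ± 0.49, adjusted p = 0.012). The levels of miR-99b-5p were 20327, 21519 and 16575 CPM in PTM cells and 40876, 38452 and 51194 CPM in VSMC (-1.16 ± 0.46, adjusted p = 0.048). For both, the libraries of the types did not overlap, although the call of miR-99b-5p was lost when any 1 of the 6 libraries was left out (adjusted p of 0.059 to 0.19), and that of miR-99a-5p with the tags of all classes as library size. The seed as a whole, shown in capitals, held 3.46 ± 0.364% of the mature tags of PTM cells and 5.88 ± 0.765% of those of VSMC.
miR-99a-5p: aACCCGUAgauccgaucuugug
miR-99b-5p: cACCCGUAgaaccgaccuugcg

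The ratio of the 2 arms of a hairpin is given as log2(5p/3p) with 1 added to each count. It does not depend on scaling where both arms are well counted. Where 1 arm is near 0, the added count makes the ratio follow the depth and the level of the other arm. Among 154 miRNA genes with at least 100 counts over both arms in every PTM and VSMC library, the median absolute difference was 0.72, and it was over 1 for 62 genes. Over the 154 genes, the libraries did not overlap for 50, and an exact test cannot go below p = 0.10 for any. The largest differences rested partly on uneven counts. For let-7e the ratio was 6.80, 7.82 and 6.06 in PTM cells and 6.52, -10.31 and 6.34 in VSMC, so that without VSMC replicate 2 the difference of 6.04 became 0.46. For miR-382 of the Dlk1-Dio3 region the difference was -3.77, but its 3p arm did not reach 10 counts in 3 libraries. That value thus follows in part the level of the 5p arm and the depth. For miR-744 the difference was 3.23, with its 5p arm at 157 CPM in VSMC replicate 1 and 4775 CPM in the highest VSMC library. The difference was 3.05 for miR-466i and -2.96 for miR-1934. In the last case miR-1934-5p was at 7.94, 5.04 and 17.1 CPM in PTM cells and 42.5, 43.8 and 49.9 CPM in VSMC, while miR-1934-3p was at 41.2, 40.1 and 72.0 CPM in PTM cells and 27.9, 31.6 and 36.7 CPM in VSMC. The more abundant arm was 3p in PTM cells and 5p in VSMC.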

How the data were processed

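The data were tag counts of small RNAs in 21 libraries of 7 mouse cell types, deposited as one table. Per the labels' protocols, total RNA was extracted with TRNzol and libraries followed a BGI protocol. Bowtie2 and the build mm10 are named in the submitters' processing notes, while the sources used here give no version, trimming step or rule for tags with several matches. Per the file headers the authors deposited for each library a count and a TPM value, whose numbers equal the count per 1000000 tags of all classes, with a count of 0 written as 0.001. TPM was not tested. The mature entries were summed for the library size of each library. Counts were fitted in edgeR 4.0.16 (R 4.3.3) over all 21 libraries with a coefficient per type, TMM scaling, the robust quasi-likelihood F test and Benjamini-Hochberg adjustment over the 846 miRNAs that reached 10 counts in 3 or more libraries. limma 3.58.1 (voom) and DESeq2 1.42.0 were alternatives, and the fit was tested on simulated data. Intervals of count ratios cover counting error only, while those of log2 fold changes come from the fit. Named miRNAs were the 10 most abundant per type, the 12 largest called differences in each direction among miRNAs of at least 50 CPM without overlap, the largest vascular differences shared against both other smooth muscle types, the 4 most abundant members of each of 33 lists, the 5 smallest differences among the 40 most abundant, and the 5 largest arm differences. Others were named after their values were seen, among them miR-149-3p, miR-9-5p, miR-6392-5p, miR-615-5p, miR-204-5p, miR-146a-5p, miR-148a-5p and miR-369-5p. The members and lists were chosen with earlier results of these data known. Sequences for 714 of the 846 tested entries came from RefSeq and host genes from GENCODE. The main fit did not pair libraries by replicate number.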

Additional observations from a re-analysis of the deposited data

How the results depend on the processing

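Between PTM cells and VSMC 365 miRNAs passed, and 297 to 407 did over 12 other settings, with 308 to 336 when 1 library was left out. Of 149 named miRNAs tested, 85 passed, 63 of them under every alternative tried, at most 18 each, and 22 lost the call in at least 1. The call of miR-181a-5p was lost in 9 of 18, and with the tags of all classes as library size its sign changed near 0 (-0.14, adjusted p = 0.79). The vascular comparisons were less steady. Against ISMC, where 11 passed, 3 did with the tags of all classes as library size, 41 with DESeq2, 43 in the fit of the 4 contractile types, 97 in the fit of the 2 types and 0 to 9 without 1 library. Against TSMC, where 28 passed, the counts were 46, 114, 111 and 129 in the same order, 47 with limma-voom, 77 without the germ cell libraries (a setting chosen after the data were seen) and 14 to 29 without 1 library. Higher in VSMC than in both were 1 with library totals, 13 with DESeq2, 11 in the fit of the 4 types and 1 without the germ cell libraries. Lower than in both were 2 with the tags of all classes, 14 with DESeq2, 17 in the fit of the 4 types and 0 to 7 without 1 library. The cause was not tested.

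The replicate numbers share no source in the labels, and the deviations of same-numbered PTM and VSMC libraries correlated at -0.08, 0.00 and -0.05. Those of VSMC and ISMC correlated at 0.26, 0.01 and 0.01, and those of VSMC and TSMC at -0.20, 0.36 and 0.32. Between VSMC and TSMC libraries of different number the values ran from -0.44 to 0.12. With the replicate block 352 passed between PTM cells and VSMC, 5 against ISMC and 26 against TSMC, and 5 were lower in VSMC than in both. Low counts limit miRNAs under about 1 CPM, since 1 count stood for 0.0631 to 0.174 CPM in the PTM and VSMC libraries.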
